A study of Homo sapiens with 8 samples.

Results

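Glycolysis and hypoxia target genes were followed in hTERT-RPE1 cells, a human line derived from retinal pigment epithelium and immortalised with telomerase. The set holds 36 of the 57884 genes listed in the deposited tables and was taken by gene symbol. It comprises 17 glycolytic enzymes, 3 regulators of glycolytic flux, 4 carriers of glucose or lactate and 12 other targets of the hypoxia-inducible factors. All 36 were found once and all passed the filter on low values. Cells labelled ATF3(-/-) and wild-type cells were each kept in medium without serine and glycine for 8 h or in complete medium. The 4 groups were thus labelled-knockout cells in serine/glycine-free medium, labelled-knockout cells in complete medium, wild-type cells in serine/glycine-free medium and wild-type cells in complete medium. Each group had 2 RNA-sequencing libraries, 1 from each of 2 independent experiments, called batch 1 and batch 2. The sources used here do not give the ATF3 allele, the number of clones or whether the complete-medium cultures were washed.

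Glycolysis splits glucose into pyruvate, and the lactate dehydrogenases interconvert pyruvate and lactate. The hypoxia-inducible factors are transcription factors whose alpha subunits are hydroxylated by the EGLN prolyl hydroxylases when oxygen is present and are then degraded through the VHL ubiquitin ligase. At low oxygen they bind hypoxia response elements and raise transcription of glycolytic enzymes, the glucose carrier SLC2A1, the lactate carrier SLC16A3 and genes of acid balance, mitophagy and collagen hydroxylation. ATF3, the gene of the genotype label, encodes a transcription factor that cells induce under many kinds of stress.

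The unit is FPKM, which scales reads to transcript length and library size, so levels of different genes are compared per length. Each batch has its own separately normalized table, and levels were therefore compared within a batch. The depth is unknown, and relative depth ran from 1.00 to 1.27 across the 8 libraries. ATF3 mRNA was present in every library labelled knockout, at 4.45 and 3.38 FPKM in batch 1 (serine/glycine-free, complete), against 6.46 and 3.47 FPKM in wild type. Batch 2 had 57.3 and 20.8 FPKM in libraries labelled knockout, against 18.0 and 3.65 FPKM in wild type. These gene-level values leave the protein unmeasured, and the genotype is written as labelled. Of 12 markers of retinal pigment epithelium, 4 to 7 were at 0 in each library, and their summed level was 4.58 to 13.9 FPKM. Summed markers of immune and endothelial cells stayed at or below 1.05 and 1.52 FPKM. The 12 epithelial markers summed to 1076 and 1317 FPKM in labelled-knockout cells of batch 2 (serine/glycine-free, complete), against 370 and 581 FPKM in wild-type cells of that batch. In batch 1 they summed to 235 and 223 FPKM in labelled-knockout cells and 317 and 360 FPKM in wild-type cells. In labelled-knockout cells of batch 2 all 12 epithelial markers were at 1 FPKM or more, against 8 and 7 of 12 in wild type of that batch and 4 to 6 in batch 1. The sum of the 12 mesenchymal markers ran the other way, at 220 and 224 FPKM in labelled-knockout cells of batch 2 against 815 and 742 FPKM in wild type. In batch 1 it was 1846 and 1656 FPKM against 1335 and 1279 FPKM. VIM weighed most in batch 2, at 102 and 118 FPKM against 638 and 598 FPKM. COL1A1 was higher in labelled-knockout cells there, at 1.80 and 2.53 FPKM against 0.973 and 1.99 FPKM. Mesenchymal markers at 1 FPKM or more numbered 8 and 8 in labelled-knockout cells of batch 2, against 8 and 9 in wild type. The libraries labelled knockout in batch 2 thus stood apart in these sums, and the part of this difference in the results on genotype was not tested. Wild-type cells of the 2 batches also differed in single markers. SPARC stood at 343 and 343 FPKM in wild type of batch 1 (serine/glycine-free, complete), against 1.66 and 0.620 FPKM in batch 2. KRT19 stood at 0.143 and 0.281 FPKM, against 216 and 321 FPKM. VIM differed less, at 856 and 809 FPKM against 638 and 598 FPKM. The part of these differences in the contrasts between batches was not tested.

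The hypoxia response element has the core ACGTG or GCGTG. These letters were searched on both strands of RefSeq promoter windows (GRCh38.p14) of 300 bases, which run from 250 bases before to 50 bases after a start site, with overlapping matches counted. Of the set, 32 genes matched an entry, with 59 windows, and SLC2A3, SLC16A1, BNIP3L and NDRG1 had none in the table. ACGTG was present in 39% of the members' windows and in 21.4% of all 35116 windows. GCGTG was present in 40.7% of the members' windows and in 36.5% of all windows, and either core in 67.8% and 48.4%. Stretches upstream of 5 genes on which the results turn are printed with the core on either strand in capitals, where CACGT and CACGC are the cores read from the other strand. They are PFKFB4 (chr3:48556940-48556994, minus strand), ENO2 (chr12:6914437-6914491, plus strand), PGK1 (chrX:78104012-78104094, plus strand), BNIP3 (chr10:131981998-131982091, minus strand) and CA9 (chr9:35673885-35673927, plus strand).
PFKFB4: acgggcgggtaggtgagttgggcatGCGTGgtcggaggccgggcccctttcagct
ENO2: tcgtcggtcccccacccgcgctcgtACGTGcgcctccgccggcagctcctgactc
PGK1: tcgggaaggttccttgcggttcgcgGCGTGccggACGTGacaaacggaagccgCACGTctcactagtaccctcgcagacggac
BNIP3: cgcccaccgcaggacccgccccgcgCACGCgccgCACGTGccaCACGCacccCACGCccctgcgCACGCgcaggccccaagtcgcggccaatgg
CA9: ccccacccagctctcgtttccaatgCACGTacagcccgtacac
The first base shown lies 191, 143, 236, 168 and 43 bases upstream of the start site in the order of the 5 lines. PFKFB4 and ENO2 each carry 1 core in the stretch shown. PGK1 carries 2 ACGTG cores and 1 GCGTG core, and BNIP3 carries 4 GCGTG cores besides CACGTG, which reads as ACGTG on both strands. A match is a string of letters and shows no binding.

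Several glycolytic enzymes were among the most abundant mRNAs of these cells, and which isozyme led differed between the batches for some pairs. GAPDH, the glyceraldehyde phosphate dehydrogenase, had the highest FPKM of all protein-coding genes in every batch 1 library (2414 to 2930 FPKM) and ranked between 8 and 30 in batch 2 (854 to 1391 FPKM). ENO1, the main enolase, ran from 864 to 1832 FPKM and PKM, the pyruvate kinase of most tissues, from 576 to 985 FPKM. Other enzymes ranked far lower among protein-coding genes, such as HK2 between 3485 and 10322 and ENO2 between 1644 and 7936. At the other end EGLN3, an oxygen-sensing prolyl hydroxylase, did not exceed 3.29 FPKM and was listed at 0 in wild-type serine/glycine-free cells of batch 2. Together the 36 genes held 1.47% to 2.65% of the protein-coding FPKM of a library.

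The share of LDHA within LDHA plus LDHB, the subunits of lactate dehydrogenase, was lower in serine/glycine-free than in complete medium and lower in labelled-knockout than in wild-type cells in every pair of libraries. In batch 1 LDHA made up 27.7% and 32.0% in labelled-knockout cells (serine/glycine-free, complete) and 31.9% and 35.1% in wild-type cells. In batch 2 it made up 74.4% and 79.2% in labelled-knockout cells and 75.8% and 82.6% in wild-type cells. LDHB was thus the more abundant of the pair in all 4 libraries of batch 1 and LDHA in all 4 of batch 2. SLC16A3, the lactate exporter of glycolytic cells, held 5.21% to 14.7% of its sum with SLC16A1 in batch 1 and 65.2% to 77.7% in batch 2. SLC2A3, a glucose carrier of high affinity, held 42.8% to 53.7% of its sum with SLC2A1 in batch 1 and 0.113% to 1.05% in batch 2. Among the phosphofructokinases PFKP led in all 4 libraries of batch 2, with 50.8% to 54.3% of the 3-gene sum. In batch 1 it led in 3 of 4 libraries, with 36.2% to 41.8%, while PFKM led at 35.7% in labelled-knockout complete medium. The 3 listed pseudogenes of SLC2A3 held 88.8% to 94.1% of the summed FPKM of that gene and its pseudogenes in batch 2, so its low level there is uncertain.

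**Figure D1:**
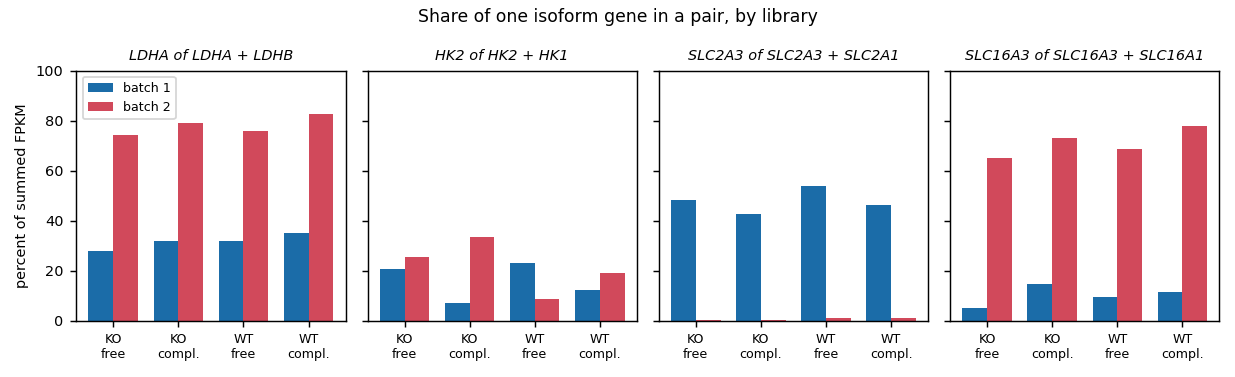
Share of the first gene in each pair, as percent of the summed FPKM of both genes (vertical axis, 0 to 100), for 4 pairs of isozymes or carriers in each library, labelled knockout left of wild type and serine/glycine-free left of complete medium. Bars are single libraries, blue for batch 1 and red for batch 2. LDHA holds 27.7% to 35.1% in batch 1 and 74.4% to 82.6% in batch 2.

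The first comparison asks how the genes differ between serine/glycine-free medium at 8 h and complete medium labelled 0 h. Most of the 36 genes were lower in serine/glycine-free medium, led by PFKFB4 and ENO2, but no gene of the set passed the threshold. Tests used limma on log2(FPKM + 1) with batch as a block and Benjamini-Hochberg adjustment over 17994 genes, and a call is an adjusted p under 0.05. On this scale the differences of low genes are understated. Limma called 0 of 36 members and 24 of all 17994 genes (0.133%), and 8 members and 1805 genes had an unadjusted p under 0.05. The fitted difference was below 0 for 27 of 36 members, with a median of -0.24, against a median of 0.02 over all genes tested. Of these, 16 were lower in all 4 pairs of libraries that share batch and genotype, where 11.4% of all genes were. The 16 include EGLN3, which rests on values under 1 FPKM in batch 2. Only SLC16A1 was higher in all 4, where 14.6% of all genes were. With the libraries scaled to equal medians 16 members were lower in all 4 pairs, 15 of them shared. With quantile normalization 22 were, including all 16. Of all genes, 12.8% and 14.1% were lower in all 4 pairs under these scalings.

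PFKFB4 (ENSG00000114268, hg19 chromosome 3, 48555116 to 48601206, a locus listed for 2 genes) makes fructose 2,6-bisphosphate, the activator of phosphofructokinase. In labelled-knockout cells of batches 1 and 2 it stood at 2.70 and 5.89 FPKM in serine/glycine-free medium, against 7.70 and 24.1 FPKM in complete medium. In wild-type cells it stood at 6.52 and 10.1 FPKM in serine/glycine-free medium, against 19.2 and 34.0 FPKM in complete medium. Within a batch both serine/glycine-free libraries lay below both complete ones, and the ratio of serine/glycine-free to complete medium was 0.351 and 0.244 in labelled-knockout cells and 0.340 and 0.296 in wild type. The fitted difference was -1.55 ± 0.19 (log2, SE; limma adjusted p = 0.0906). It passed in 2 of 19 alternatives, those with FPKM of 1 or more in all 8 libraries and with protein-coding genes only (lowest adjusted p = 0.0242). PFKFB3, the related enzyme of most tumour cells, had 9.19 and 7.53 FPKM in labelled-knockout serine/glycine-free cells, against 6.84 and 14.5 FPKM in complete medium. It had 8.26 and 6.20 FPKM in wild-type serine/glycine-free cells, against 11.7 and 15.3 FPKM in complete medium. It was thus lower in 3 of 4 pairs and higher in the labelled-knockout pair of batch 1. The share of PFKFB4 in the sum of both genes was lower in serine/glycine-free medium in every pair. Labelled-knockout cells without serine and glycine had shares of 22.7% and 43.9%, against 53.0% and 62.4% in complete medium. Wild-type cells without serine and glycine had 44.1% and 61.9%, against 62.0% and 69.0% in complete medium. PDK1, which restrains entry of pyruvate into mitochondria, was higher in serine/glycine-free medium in both pairs of batch 1 and lower in both of batch 2.

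ENO2 (ENSG00000111674), the enolase typical of neurons, was the next in order of p. It stood at 13.0 and 5.83 FPKM in labelled-knockout serine/glycine-free cells, against 24.0 and 13.3 FPKM in complete medium. In wild type it stood at 20.6 and 17.5 FPKM in serine/glycine-free cells, against 44.4 and 26.2 FPKM in complete medium. All 4 ratios lay between 0.438 and 0.666, and the fitted difference was -0.89 ± 0.16 (limma adjusted p = 0.231). The listed hg19 locus of ENO2 (chromosome 12, 6976282 to 7032861) is shared by 6 listed genes, among them TPI1, so reads of neighbours may have been split. LDHA had 328 and 484 FPKM in labelled-knockout serine/glycine-free cells, against 369 and 726 FPKM in complete medium. It had 425 and 669 FPKM in wild-type serine/glycine-free cells, against 484 and 1028 FPKM in complete medium, a fitted difference of -0.39 ± 0.13 (limma adjusted p = 0.411). The gap was wider in batch 2, where the ratios were 0.666 and 0.651, than in batch 1, where they were 0.889 and 0.878. The other enzymes lower in all 4 pairs were the isomerase GPI (-0.24 ± 0.10), the mutase PGAM1 (-0.31 ± 0.12), the aldolase ALDOC and the isomerase TPI1. The enzymes of the trunk pathway differed by batch in this respect, since 13 of 17 were lower in both pairs of batch 2, where 25.5% of all genes were, and 7 of 17 in both pairs of batch 1, where 30.5% of all genes were.

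Of the carriers, SLC16A1, which moves lactate and other monocarboxylates, stood at 86.1 and 68.1 FPKM in labelled-knockout serine/glycine-free cells, against 55.4 and 66.5 FPKM in complete medium. In wild type it stood at 84.1 and 79.1 FPKM, against 59.3 and 70.8 FPKM in complete medium, and the fitted difference was 0.33 ± 0.14 (limma adjusted p = 0.506). The 2 pairs of batch 1 showed most of it. SLC16A3 stood at 4.73 and 128 FPKM in labelled-knockout serine/glycine-free cells, against 9.51 and 181 FPKM in complete medium. In wild type it stood at 8.72 and 172 FPKM in serine/glycine-free medium, against 7.74 and 247 FPKM in complete medium, so 3 of 4 pairs were lower (-0.44 ± 0.15, limma adjusted p = 0.433). The glucose carriers SLC2A1 and SLC2A3 had no common direction over the 4 pairs.

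The other hypoxia targets were lower in all 4 medium pairs for 9 of 12 genes, where 11.4% of all genes were. BNIP3, a receptor for mitophagy, stood at 3.89 and 52.1 FPKM in labelled-knockout serine/glycine-free cells, against 5.88 and 87.5 FPKM in complete medium. In wild type it stood at 14.6 and 68.6 FPKM in serine/glycine-free cells, against 27.1 and 123 FPKM in complete medium. All 4 ratios lay between 0.538 and 0.662, and the fitted difference was -0.73 ± 0.31 (limma adjusted p = 0.512). Its 39 listed pseudogenes held 12.1% to 33.5% of the summed FPKM of BNIP3 and its copies, which makes its level uncertain. EGLN1, the main prolyl hydroxylase acting on the hypoxia-inducible factors and itself their target, was lower by the fit at -0.50 ± 0.17, the histone demethylase KDM3A at -0.46 ± 0.16 and the collagen prolyl hydroxylase subunit P4HA1 at -0.38 ± 0.17 (limma adjusted p from 0.411 to 0.542). The remaining genes lower in every pair were the carbonic anhydrase CA12, the peptide hormone ADM, the collagen hydroxylase subunit P4HA2, EGLN3 and ANKRD37, an ankyrin repeat gene. EGLN3 did not exceed 0.592 FPKM in batch 2, where its direction is uncertain. Its listed pseudogene held 46.0% and 100% of the sum of both in serine/glycine-free libraries of batch 2 (labelled knockout, wild type). In complete medium of that batch it held 0%. Within the 2 genotypes taken singly, limma called 0 of 36 members in wild type (10 of all genes, 0.0556%) and 0 in labelled-knockout cells (3 of all genes, 0.0167%). At an unadjusted p under 0.05 there were 3 members in each, where 1014 of all 17994 genes were in wild type and 1006 in labelled-knockout cells. PFKFB4 and ENO2 were in both sets of 3, with fitted differences of PFKFB4 of -1.55 ± 0.27 in labelled-knockout cells and -1.54 ± 0.27 in wild type.

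**Figure D2:**
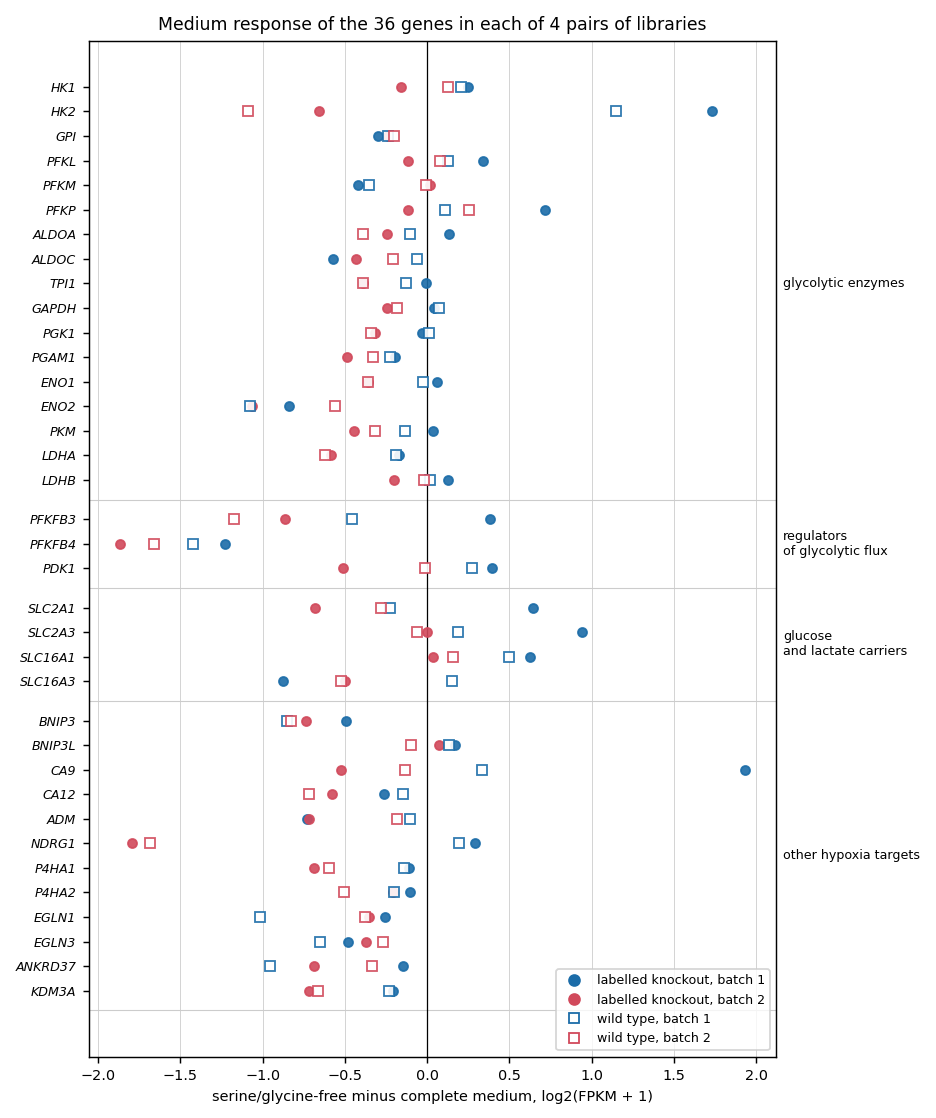
Difference of serine/glycine-free minus complete medium for each of the 36 genes, log2(FPKM + 1), in 4 pairs of libraries that share genotype and batch. Filled points are labelled-knockout and open squares wild-type pairs, blue for batch 1 and red for batch 2, and 16 genes have all 4 marks left of 0. PFKFB4 lies between -1.87 and -1.23, and the red marks of NDRG1 lie near -1.7 while its blue ones lie right of 0.

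The second comparison asks how labelled-knockout cells differ from wild type in the same genes. Most members were lower in labelled-knockout cells, and CA12, PGK1, ENO2 and PFKFB4 were lower in every pair, but again none passed the threshold. Limma called 0 of 36 members and 8 of 17994 genes (0.0445%), and 12 members and 1965 genes had an unadjusted p under 0.05. The fitted difference was below 0 for 32 of 36 members, with a median of -0.33, against -0.03 over all genes tested. In all 4 pairs that share batch and medium 19 members were lower, where 13.2% of all genes were, and 0 members were higher, where 8.34% of all genes were. The 19 include SLC2A3, which did not exceed 0.347 FPKM in batch 2. Its pseudogenes held 88.8% to 94.1% of the summed FPKM there, so its direction in batch 2 is uncertain. With libraries scaled to equal medians 17 of the 19 remained. With quantile normalization 12 remained, while GAPDH, ENO1, PKM, LDHB, P4HA1, P4HA2 and EGLN1 no longer met the rule. Of all genes, 11% and 10.3% were lower in all 4 pairs under these scalings. The set's share of the protein-coding FPKM was lower in labelled-knockout cells in each pair. In batch 1 labelled-knockout cells had 1.99% in serine/glycine-free medium, against 2.19% in wild type, and 2.01% in complete medium, against 2.31% in wild type. In batch 2 labelled-knockout cells had 1.47% in serine/glycine-free medium, against 1.94% in wild type, and 2.10% in complete medium, against 2.65% in wild type. In such bulk libraries fewer cells of one type and less RNA per cell cannot be told apart.

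CA12 (ENSG00000074410, hg19 chromosome 15, 63613576 to 63674360) encodes a carbonic anhydrase of the cell surface. It stood at 5.30 and 1.17 FPKM in labelled-knockout cells in serine/glycine-free medium (batches 1 and 2), against 13.0 and 5.75 FPKM in wild type. In complete medium it stood at 6.54 and 2.23 FPKM in labelled-knockout cells, against 14.5 and 10.1 FPKM in wild type. The genotypes did not overlap within either batch, with ratios of labelled knockout to wild type of 0.408 and 0.451 in batch 1 and 0.203 and 0.221 in batch 2. The fitted difference was -1.40 ± 0.21 (limma adjusted p = 0.299).

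PGK1 (ENSG00000102144, hg19 chromosome X, 77320684 to 77384793), the first enzyme of glycolysis to yield ATP, was lower by a like ratio in every pair. It stood at 202 and 483 FPKM in labelled-knockout serine/glycine-free cells, against 351 and 766 FPKM in wild type. In complete medium it stood at 207 and 601 FPKM in labelled-knockout cells, against 348 and 972 FPKM in wild type. The ratios were 0.577 and 0.595 in batch 1 and 0.631 and 0.618 in batch 2, and the fitted difference was -0.72 ± 0.12 (limma adjusted p = 0.301). ENO2 and PFKFB4, whose levels are given above, had ratios of 0.334 to 0.632 and of 0.401 to 0.709 in the 4 pairs. Their fitted differences were -0.96 ± 0.16 (limma adjusted p = 0.372) and -0.85 ± 0.19 (limma adjusted p = 0.385). Further enzymes among the 12 members with the smallest p were PGAM1 (-0.47 ± 0.12), TPI1 (-0.46 ± 0.12), LDHA (-0.43 ± 0.13), GAPDH (-0.36 ± 0.13), ENO1 (-0.44 ± 0.17) and the hexokinase HK1 (-0.75 ± 0.29), with limma adjusted p from 0.385 to 0.456. Without the 2 libraries labelled knockout of batch 2, which stood apart, HK1 differed by -0.10 ± 0.10, ENO1 by -0.16 ± 0.14 and GAPDH by -0.22 ± 0.13 (limma adjusted p = 0.71, 0.69 and 0.571). Those of PGAM1, LDHA, GAPDH, ENO1 and HK1 were further from 0 in batch 2 than in batch 1 in each medium. Of the 17 enzymes, 10 were lower in all 4 pairs, where 13.2% of all genes were. None was higher in all 4, where 8.34% of all genes were.

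PDK1, 1 of the 3 regulators, stood at 6.51 and 11.7 FPKM in labelled-knockout serine/glycine-free cells, against 11.7 and 21.8 FPKM in wild type. In complete medium it stood at 4.71 and 17.1 FPKM, against 9.56 and 22.0 FPKM in wild type, and the fitted difference was -0.71 ± 0.19 (limma adjusted p = 0.385). PFKFB3 differed in direction between pairs. Among the other hypoxia targets all 12 were lower in both pairs of batch 1, where 34.8% of all genes were, and 6 of 12 were lower in both pairs of batch 2, where 34.9% of all genes were. BNIP3 was the 1 hypoxia target besides CA12 among the 12 members with the smallest p (-1.14 ± 0.31, limma adjusted p = 0.389). Without the libraries labelled knockout of batch 2 its difference was -1.85 ± 0.12 (limma adjusted p = 0.284). Its ratio of labelled knockout to wild type was 0.267 and 0.217 in serine/glycine-free and complete medium of batch 1 and 0.759 and 0.715 in batch 2. In batch 1 its pseudogenes held 33.5% and 30.9% of the summed FPKM in labelled-knockout cells, against 12.1% and 17.4% in wild type. In batch 2 they held 15.9% to 18.6%. The part of such split reads in the wider gap of BNIP3 in batch 1 was not tested.

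Taken by medium, limma called 0 of 36 members in serine/glycine-free medium (9 of all genes, 0.05%) and 0 in complete medium (6 of all genes, 0.0333%). At an unadjusted p under 0.05 there were 8 and 7 members, and 1055 and 860 of all 17994 genes. CA12, PGK1 and ENO2 had the smallest p in each medium, with fitted differences of CA12 of -1.40 ± 0.30 in serine/glycine-free and -1.41 ± 0.30 in complete medium.

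**Figure D3:**
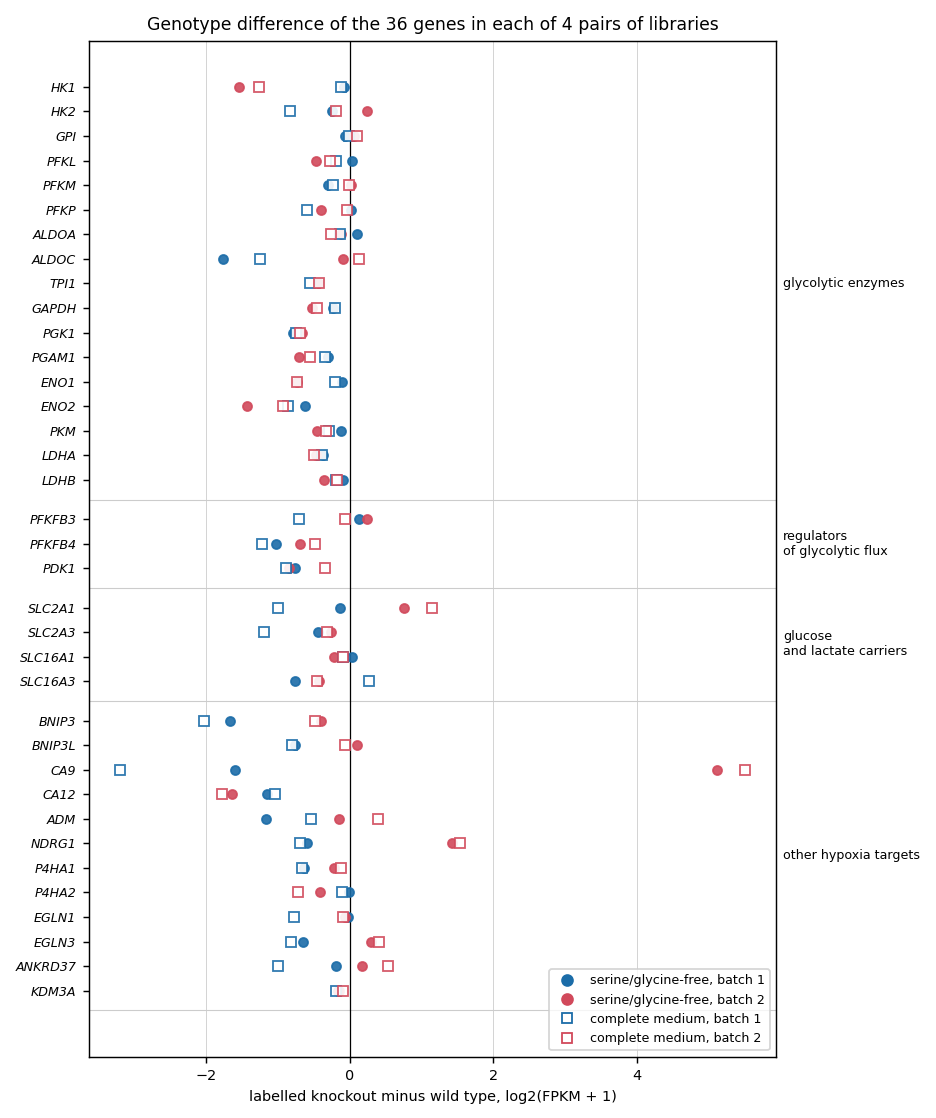
Difference of labelled knockout minus wild type for each of the 36 genes, log2(FPKM + 1), in 4 pairs of libraries that share medium and batch. Filled points are serine/glycine-free and open squares complete-medium pairs, blue for batch 1 and red for batch 2. All marks of CA12, PGK1, ENO2 and PFKFB4 lie left of 0, and CA9 runs from -3.19 in batch 1 to 5.50 in batch 2.

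**Figure D4:**
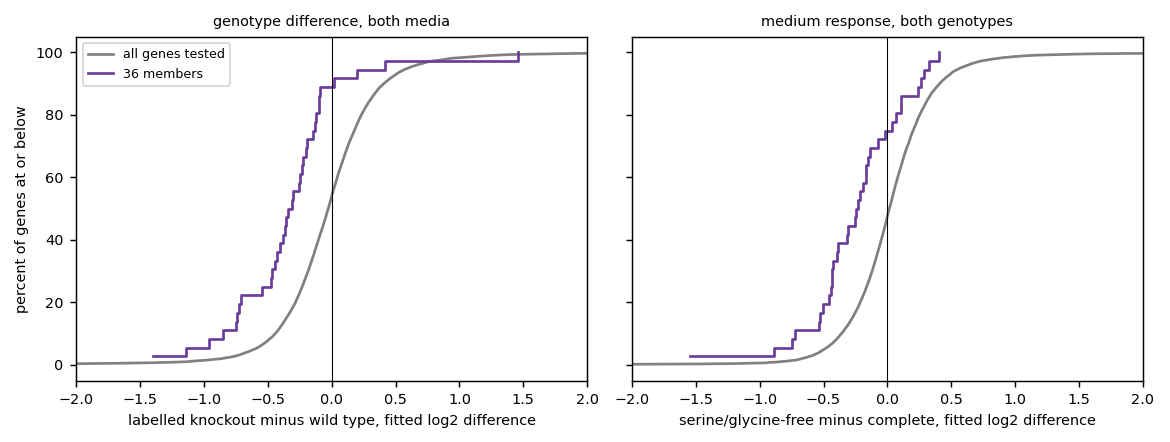
Percent of genes (vertical axis) with a fitted difference at or below the value on the horizontal axis (log2), for the 36 genes in purple and all 17994 genes tested in grey. The left panel shows labelled knockout minus wild type, with medians of -0.33 and -0.03, and the right panel serine/glycine-free minus complete medium, with medians of -0.24 and 0.02.

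The third comparison asks whether the medium response differed between the genotypes. Limma called 0 of 36 members and 11 of all genes for this interaction (0.0611%), and 0 members and 276 genes had an unadjusted p under 0.05. The difference of the responses was below 0 for 16 members and above 0 for 20, with a median of 0.01. That split rests on the complete-medium libraries labelled knockout, since 28 members lay below 0 without that of batch 1 and 10 without that of batch 2. The 4 members with the smallest p were SLC16A3 (-0.50 ± 0.31), ADM (-0.58 ± 0.48), EGLN1 (0.39 ± 0.33) and PFKFB3 (0.58 ± 0.51), each with a limma adjusted p of 1. Leaving out 1 library moved each of them by over 1.5 times, that of PFKFB3 between 0.039 and 1.11. Standard errors of this size do not show that the responses were alike.

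A number of members had differences of opposite sign in the 2 batches, some of them near 0. Higher in both medium pairs of batch 1 and lower in both of batch 2 were 7 members, HK2, GAPDH, LDHB, SLC2A3, PDK1, CA9 and NDRG1, where 4.58% of all genes were, and 0 members showed the reverse, where 6.38% of all genes did. Lower in labelled-knockout cells in both pairs of batch 1 and higher in both of batch 2 were GPI, SLC2A1, CA9, NDRG1, EGLN3 and ANKRD37. These 6 members are 16.7% of the set, not far above the 11.3% of all genes with that pattern. The reverse was seen in 0 members, where 8.27% of all genes showed it. EGLN3 did not exceed 0.592 FPKM in any library of batch 2, so its direction there rests on low values. Other signs rest on log2 differences near 0. In the medium response SLC2A3 in labelled-knockout cells of batch 2 differed by -0.0026 and PDK1 in wild type of batch 2 by -0.0122. LDHB in wild type differed by 0.0203 in batch 1 and -0.0177 in batch 2. The genotype difference of GPI in complete medium of batch 1 was -0.0103. A model with batch terms, chosen after the values were seen, tested these differences between batches with limma. It left 2 residual degrees of freedom, and the media and genotypes of a batch stand in for replicates there, not independent experiments.

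NDRG1, a gene induced by hypoxia and stress, stood in batch 1 at 42.7 FPKM in labelled-knockout serine/glycine-free cells, against 34.7 FPKM in complete medium, and at 65.1 FPKM in wild-type serine/glycine-free cells, against 56.7 FPKM in complete medium. In batch 2 it stood at 144 FPKM in labelled-knockout serine/glycine-free cells, against 503 FPKM in complete medium, and at 53.1 FPKM in wild-type serine/glycine-free cells, against 173 FPKM in complete medium. The medium response was lower in batch 2 than in batch 1 by the model (-1.98 ± 0.11, limma adjusted p = 0.0358), the 1 member among 19 calls of all genes (0.106%). The genotype difference was higher in batch 2 (2.13 ± 0.11, limma adjusted p = 0.0137).

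Beside NDRG1 the genotype difference of CA9, HK1 and BNIP3 passed this test, 4 members in all, where 538 of all genes did (2.99%). CA9, the other carbonic anhydrase of the cell surface, stood in batch 1 at 3.27 and 0.120 FPKM in labelled-knockout cells (serine/glycine-free, complete), against 11.9 and 9.24 FPKM in wild type. In batch 2 it stood at 37.3 and 54.1 FPKM in labelled-knockout cells, against 0.105 and 0.215 FPKM in wild type, so the genotypes changed places (batch 2 minus batch 1, 7.70 ± 0.59, limma adjusted p = 0.0217). CA12 had no such turn, and CA9 made up 97.0% and 96.0% of the sum of both in labelled-knockout cells of batch 2 against 1.80% and 2.09% in wild type. HK1, the widely expressed hexokinase, stood in batch 1 at 42.6 and 35.7 FPKM in labelled-knockout cells, against 45.1 and 39.0 FPKM in wild type. Batch 2 had 31.0 and 34.7 FPKM in labelled-knockout cells, against 92.3 and 84.4 FPKM in wild type (-1.30 ± 0.15, limma adjusted p = 0.0377). The gap of BNIP3 was wider in batch 1, as its ratios above show (1.41 ± 0.18, limma adjusted p = 0.0428), with the limit from its pseudogenes given there. These are the libraries in which epithelial and mesenchymal markers also differed, and the part of that difference was not tested. None of these 5 calls held when any 1 library was left out, which leaves 1 residual degree of freedom (lowest adjusted p 0.206 for the genotype calls and 0.334 for the medium call).

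HK2, the hexokinase induced by hypoxia and insulin, had the widest change of direction in the medium response that missed this threshold. In batch 1 it stood at 11.2 FPKM in labelled-knockout serine/glycine-free cells, against 2.67 FPKM in complete medium, and at 13.5 FPKM in wild-type serine/glycine-free cells, against 5.53 FPKM in complete medium. In batch 2 labelled-knockout cells had 10.7 FPKM in serine/glycine-free medium, against 17.4 FPKM in complete medium, and wild-type cells had 8.88 FPKM in serine/glycine-free medium, against 20.1 FPKM in complete medium. The difference between batches was -2.32 ± 0.30 (limma adjusted p = 0.291).

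**Figure D5:**
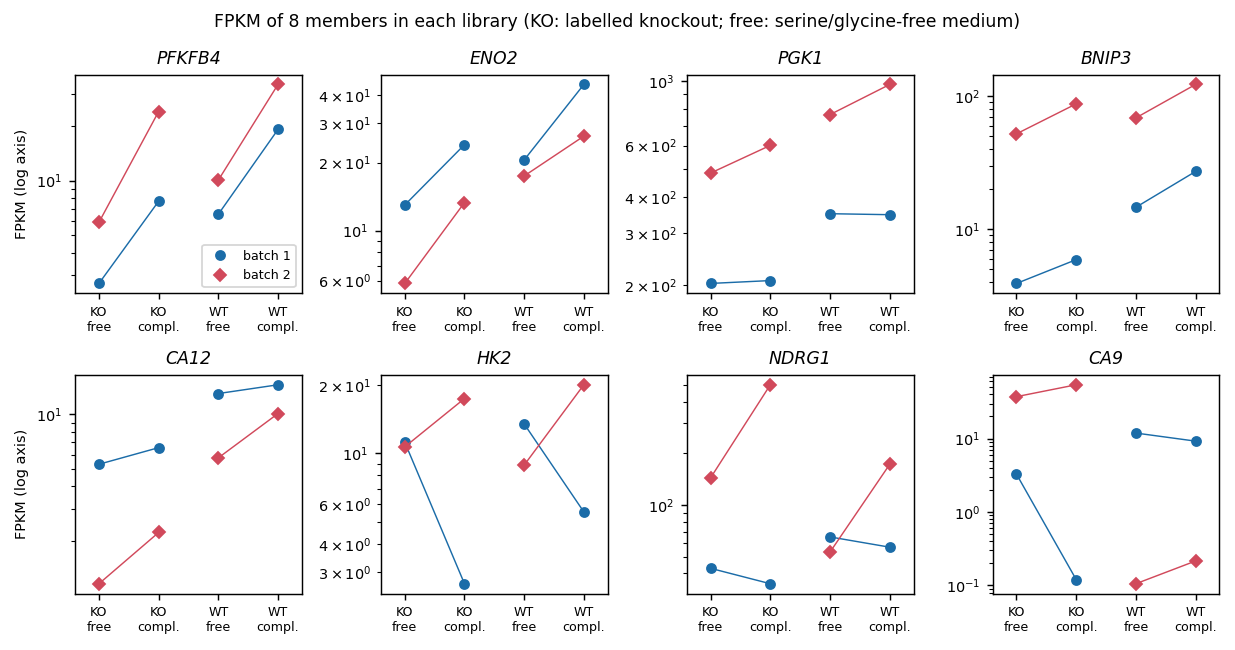
FPKM (log axes) of 8 of the 36 genes in each library, labelled knockout (KO) left of wild type (WT) and serine/glycine-free left of complete medium, with a line joining the 2 media of a genotype and batch. Circles are batch 1 and diamonds batch 2. PFKFB4 and ENO2 are lower in serine/glycine-free medium on all 4 lines, while the lines of HK2 and NDRG1 slope opposite ways in the 2 batches.

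Other genes of these pathways were read from the same fits. These lists too were chosen with earlier results of these data known. Limma called 0 of 15 tested genes of the hypoxia-inducible factor machinery (HIF1A, EPAS1, ARNT, VHL and others) and 0 of 26 further hypoxia targets in the medium response and in the genotype difference. In the medium response the medians were -0.11 and 0.01, and in the genotype difference -0.13 and -0.15. The further targets with the smallest p in the medium response were the hydroxylase JMJD6 (-0.81 ± 0.13), the sterol sensor INSIG2 (-0.79 ± 0.14) and the angiogenic factor VEGFA (0.91 ± 0.27), with limma adjusted p from 0.189 to 0.365. Other glycolysis enzymes (12 tested), genes of pyruvate entry to mitochondria (13) and the pentose phosphate pathway (7) likewise had 0 calls in both comparisons, with medians of the medium response of -0.15, 0.08 and -0.11. As a check of the medium change, all 10 of a short list of ATF4 targets were higher by the fit in serine/glycine-free medium, with a median of 2.02. Limma called 2 of them, the cystine carrier SLC7A11 (2.19 ± 0.15, adjusted p = 0.0175) and the pseudokinase TRIB3 (2.80 ± 0.22, adjusted p = 0.0274).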

How the data were processed

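Total RNA of 8 hTERT-RPE1 cultures was sequenced after Illumina library preparation, per the labels. For each batch the authors deposited 1 table of FPKM, made with TopHat, Cufflinks and Cuffdiff on hg19, per the submitters' processing notes. The sources used here give no tool versions. FPKM holds no counts, so depth is unknown; relative depth was read from the commonest step between low values. An exact 0 can be a failed estimate. Reads of overlapping genes and pseudogenes may have been split by the authors' tools.

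Groups and batches came from the labels. Kept were 17994 genes that reached 1 FPKM in 2 libraries or more. Their log2(FPKM + 1) was fitted with limma 3.58.1 in R 4.3.3 (4 group means, the batch as a block, a trended prior). P-values are two-sided, with Benjamini-Hochberg adjustment and a threshold of 0.05, on 3 residual and 2.97 prior degrees of freedom. The batch pairs the libraries because the submitters describe each number as 1 batch of treated cells. Deviations of same-numbered libraries from their group means correlated at 0.65 to 0.775 in 12 pairs. The deviation of a group in batch 1 is the negative of its deviation in batch 2. Each correlation of batch 1 therefore recurs unchanged in batch 2, and the 12 values are not independent. Such values can also arise from differences between the 2 separately normalized tables. They do not show whether the treated cultures were paired. P-values rest on 2 independent experiments.

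The members, the gene lists and the tests were chosen with earlier results of these data known, so no pattern among them is independent support. Fitted values are given for the 12 members with the smallest p in the medium response and in the genotype difference, for 4 in the interaction, for every member called, and for up to 3 genes with the smallest p per other list. The model with batch terms and the fits on protein-coding genes only (GENCODE 29 types, by Ensembl ID) were added after the data were seen. Alternatives varied pseudocount, filter, scaling, block, prior and libraries. Promoter windows are from RefSeq (GRCh38.p14); no hg19 coordinate was converted. The steps were tested on simulated data.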

Additional observations from a re-analysis of the deposited data

Results flagged for a closer look

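Several members had a response that differed between the 2 batches. By the test with batch terms these were NDRG1 in the medium response (batch 2 minus batch 1, -1.982, limma adjusted p = 0.0358) and NDRG1 (2.126, adjusted p = 0.0137), CA9 (7.7, adjusted p = 0.0217), HK1 (-1.297, adjusted p = 0.0377) and BNIP3 (1.414, adjusted p = 0.0428) in the genotype difference. All values are on the log2(FPKM + 1) scale. In the same model HK2 differed by -2.316 in the medium response (limma adjusted p = 0.291) and EGLN3 by 1.085 in the genotype difference (limma adjusted p = 0.0974). These 2 missed the threshold and stand here because both pairs of one batch lay at least 0.25 above 0 and both pairs of the other at least 0.25 below. The batch 2 values of EGLN3 were 0.228 FPKM in labelled-knockout serine/glycine-free cells, against 0 as listed in wild type, and 0.592 FPKM in labelled-knockout complete medium, against 0.203 FPKM in wild type. Its 1 listed pseudogene held 46.0% and 100% of the sum of both in those serine/glycine-free libraries (labelled knockout, wild type), so its level there is uncertain. For NDRG1 both effects turned direction, and for CA9 and EGLN3 the genotype difference did, while HK1 and BNIP3 were lower in labelled-knockout cells in both batches.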

How the results depend on the processing

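In the medium response, the genotype difference and the interaction, the named members reversed their direction in 0 of 520 values over 20 alternatives, and 2 values passed the threshold, both for PFKFB4 in the medium response. Several moved by over 1.5 times, the following among them. With the labelled-knockout cells of batch 2 in serine/glycine-free medium left out, the genotype difference of HK1 was -0.468 and that of ENO1 -0.277, and quantile normalization gave -0.2 for GAPDH. Without the complete-medium library labelled knockout of batch 2 the medium response of BNIP3 was -0.45 and that of P4HA1 -0.204, and with labelled-knockout cells of batch 1 in serine/glycine-free medium left out that of SLC16A1 was 0.21. The medians of the 36 members ran from -0.306 to -0.181 in the medium response and from -0.393 to -0.231 in the genotype difference when 1 library was left out. Unknown depth, 2 experiments and few degrees of freedom limit every p-value here, and a call that is missed does not show an equal level. Counts over all genes moved most. They are given in the order medium response over both genotypes (24 as reported), genotype difference over both media (8), medium response in labelled-knockout cells (3) and in wild type (10), genotype difference in serine/glycine-free (9) and complete medium (6), and interaction (11).

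A pseudocount of 0.1 gave 2 calls in the medium response, 2 in the genotype difference and 3 in the interaction. A pseudocount of 0.01 gave 0 and 1 in the first pair, 2 in the wild-type response, 3 in the serine/glycine-free genotype difference and 2 in the interaction. With no filter there were 0 and 2, then 6 in wild type, 1 in complete medium and 3 in the interaction. With FPKM of 1 or more in all 8 libraries there were 52 and 0, then 1 in labelled-knockout cells, 6 in wild type, and 0 in serine/glycine-free medium, complete medium and the interaction, and 1 member (PFKFB4) was called in the medium response. Protein-coding genes only gave 39 and 0, then 1, 6, 0, 0 and 0, again with 1 member called in the medium response. Without the trend there were 13 calls in the medium response and 5 in labelled-knockout cells. Without both libraries labelled knockout of batch 2 there were 0, 1, 0, 1, 0, 2 and 1, and 7 members lay below 0 in the interaction. Fits on only the groups compared gave 1 in wild type, 3 in serine/glycine-free and 0 in complete medium. Quantile normalization left 12 members lower in all 4 genotype pairs, where 10.3% of all genes were.

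The replicate block pairs the libraries of a batch. With no replicate block there were 1, 2 and 3 calls in the medium response, genotype difference and interaction, and a block per genotype and batch gave 5 in labelled-knockout cells and 7 in the interaction; the block changed no call of a member.

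Leaving out 1 library gave 0 to 21, 0 to 5, 3 to 13, 8 to 19, 2 to 14, 2 to 14 and 3 to 9 calls, 0 members called throughout, and 10 to 28 members below 0 in the interaction.

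The differences between batches, which were 538 calls with 4 members for the genotype difference and 19 with 1 member for the medium response, depended on the setting. For the genotype difference there were 210 calls with 2 members at a pseudocount of 0.1, 33 with 1 at 0.01, 0 with 0 without a filter, 1115 with 7 at 1 FPKM or more in all 8 libraries, 2 members without the trend and 1846 with 11 for protein-coding genes only. For the medium response there were 6, 3, 0, 1 and 8 calls under a pseudocount of 0.1, of 0.01, no filter, 1 FPKM or more in all 8 libraries and protein-coding genes only, with 0 members called under the first 3 and without the trend. Each library left out gave 0 calls and 0 members in both. No named member reversed here. NDRG1 passed in 7 of 16 alternatives in the genotype difference and in 4 of 16 in the medium response, BNIP3 in 5 of 16, HK1 in 4 of 16 and CA9 in 4 of 15. CA9 stood at 12.1 with a pseudocount of 0.01 (limma adjusted p = 0.0711). EGLN3 ran from 0.987 to 4.24, with 4.24 at a pseudocount of 0.01, and passed in 1 of 15 (protein-coding genes only, limma adjusted p = 0.0388). The cause of these shifts was not tested.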

Other observations

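The HIF1A and EPAS1 genes, which encode the alpha subunits of the hypoxia-inducible factors, had genotype differences that ran opposite ways between batches. The difference of batch 2 minus batch 1 was -1.19 ± 0.22 for HIF1A (log2, SE; limma adjusted p = 0.0711) and 1.40 ± 0.24 for EPAS1 (limma adjusted p = 0.0659), neither past the threshold. The collagen lysyl hydroxylase PLOD2, from the list of further hypoxia targets, passed that test at 1.21 ± 0.16 (limma adjusted p = 0.0449), where 2.99% of all genes passed. It rests on the same 2 residual degrees of freedom as the member calls. The hexokinase-like gene HKDC1 had a medium response of 0.96 ± 0.39 (limma adjusted p = 0.501). In batch 1 it stood at 5.39 FPKM in labelled-knockout serine/glycine-free cells, against 0.417 FPKM in complete medium. Wild-type cells of that batch had 6.15 FPKM, against 1.62 FPKM in complete medium. In batch 2 it stayed under 1 FPKM in every library (batch 2 minus batch 1, -1.70 ± 0.35, limma adjusted p = 0.391).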
